A study of Mus musculus with 18 samples.

Results

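A group of 10 genes of intestinal inflammation was followed through azoxymethane treatment, tumour formation and a St. John's wort diet in mouse intestine. They were chosen by name, by a rule that uses no measured value, though with earlier results of these data known: the cytokines Il1b, Tnf, Il6 and Il11, the inducible enzymes Ptgs2 and Nos2, the secreted protein Lcn2, the adhesion molecule Icam1, and the feedback inhibitors Tnfaip3 and Nfkbia. These 10 genes of 26073 measured genes were read by 11 of 41174 probes, with 2 probes for Ptgs2 and 1 for each of the others. All of them passed the filter on dim probes, Il6 through the control-diet tumours alone and the second Ptgs2 probe through tumours alone.

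RNA of male C57BL/6 mice was measured on 18 two-colour arrays, 3 for each of 6 groups, with the sample in red and a pool of mouse RNA in green. The groups were tumours of mice on the St. John's wort diet (SJW) given azoxymethane (AOM), tumours of mice on the control diet given AOM, non-tumour intestine of SJW-diet and of control-diet mice given AOM, and non-tumour intestine of SJW-diet and of control-diet mice given saline. AOM is a chemical carcinogen that gives rodents tumours of the intestine, and St. John's wort is a herbal preparation. The labels name neither doses nor ages, nor do they say which tumour and non-tumour samples shared a mouse or whether animals were pooled, and p-values measure the spread between these samples. The values below are log2 ratios of sample over pool, so 0 means equal to the pool, and they are set against each other within a gene and not between genes.

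Interleukin 1 beta and tumour necrosis factor bind receptors that free the transcription factor NF-kB from its cytoplasmic inhibitor, and NF-kB then switches on cytokines, chemokines, adhesion molecules and its own inhibitors. Interleukin 6 and interleukin 11 act through the shared receptor chain gp130 and the transcription factor STAT3. In intestine this network is known for its part in the defence against bacteria, in colitis and in tumours that arise on inflamed epithelium.

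Promoter windows of 9 of the 10 genes were matched in RefSeq (build GRCm38.p6), running from 250 bases before to 50 bases after the annotated start. Both strands were searched for the NF-kB decamer consensus, for the AP-1 motif TGANTCA and for the STAT motif TTCNNNGAA. Among 32851 windows of the same length, 4.51% held the decamer, 7.81% the AP-1 motif and 8.30% the STAT motif. The decamer was found in windows of 3 genes, Il6, Tnfaip3 and Nfkbia, the AP-1 motif in windows of Il6, Il11 and Tnfaip3, and the STAT motif in that of Icam1. None of these matches overlapped another. The 3 windows with a decamer are shown because their genes are among the 4 whose tumour arrays lay apart from every non-tumour array, 1 of them above, as for 5.48% of all genes, and 2 below, as for 11.7%. Capitals mark the decamer, and each window is written in the direction of its gene.
Il6, chr5:30012864-30013163, plus strand: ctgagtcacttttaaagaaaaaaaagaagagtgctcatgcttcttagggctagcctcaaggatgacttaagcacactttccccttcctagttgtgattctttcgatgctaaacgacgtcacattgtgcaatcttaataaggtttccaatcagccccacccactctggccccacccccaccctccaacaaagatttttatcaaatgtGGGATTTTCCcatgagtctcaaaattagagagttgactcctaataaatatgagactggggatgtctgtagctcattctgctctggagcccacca
Tnfaip3, chr10:19015361-19015660, minus strand: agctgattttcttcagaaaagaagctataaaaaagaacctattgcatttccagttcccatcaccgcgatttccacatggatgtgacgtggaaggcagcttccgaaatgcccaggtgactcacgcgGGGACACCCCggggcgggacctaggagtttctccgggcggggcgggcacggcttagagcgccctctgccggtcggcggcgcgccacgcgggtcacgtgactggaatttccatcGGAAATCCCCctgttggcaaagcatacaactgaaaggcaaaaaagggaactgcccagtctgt
Nfkbia, chr12:55492598-55492897, minus strand: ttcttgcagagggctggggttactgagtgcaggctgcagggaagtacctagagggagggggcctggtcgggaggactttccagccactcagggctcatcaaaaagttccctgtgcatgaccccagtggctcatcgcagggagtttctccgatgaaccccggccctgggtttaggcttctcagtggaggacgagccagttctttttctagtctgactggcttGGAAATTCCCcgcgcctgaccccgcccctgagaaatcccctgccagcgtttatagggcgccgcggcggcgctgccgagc
A match describes the letters of a window and is not a binding site, and no match says only that these letters were not found in it.

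The arrays differed in brightness, with a median red intensity of 336.5 to 786.5 on tumour arrays and 133 to 375 on non-tumour arrays. One scan day covered the 2 slides of the 6 tumour arrays and another the 3 slides of the 12 non-tumour arrays, so tumour and scan day cannot be told apart. On 6 arrays the green reference channel was markedly brighter. They were control saline replicates 2 and 3, SJW saline replicates 1 and 3, control AOM replicate 2 and control tumour replicate 3. Reference brightness was thus spread unevenly, mostly over saline arrays and over no SJW AOM or SJW tumour array. The labels name small intestine as the tissue and liver in the extraction protocol. The epithelial markers averaged 2.45 to 2.89 in SJW tumours, 2.32 to 2.99 in control tumours and 3.38 to 3.79 in non-tumour tissue, while the 6 hepatocyte markers together lay below it (list mean -2.17 at the lowest and -1.01 at the highest array). The small intestinal list averaged -0.02 in SJW tumours, 0.02 in control tumours, 0.61 and 0.80 after AOM and 1.21 and 1.17 after saline, for SJW and control diet in each case. A list of 6 colonocyte markers, Car1, Car4 and Aqp8 among them, averaged -0.49 and -0.68 in tumours, 3.33 and 3.90 after AOM and 4.92 and 4.81 after saline in the same order of diets. Within the small intestinal list of 7 measured genes, Lct, the lactase gene, had group means of -0.05 to 0.16. In non-tumour tissue these lay below the means of the whole list. Lct was well above background on 14 arrays and not on the rest, and its values do not stand for the other genes of the list. In tissue RNA, fewer cells of a type and less RNA per cell cannot be told apart.

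Tumours differed from non-tumour tissue of the same diet in 5 to 10 of the 10 genes, depending on the diet and the tissue compared, and the feedback inhibitors Tnfaip3 and Nfkbia were the genes called lower. In SJW tumours against AOM-treated non-tumour tissue, 3 of the 10 genes were higher and 2 lower at an adjusted p under 0.05 (limma, all genes tested together), where 9.18% of all genes were higher and 15.4% lower. The control diet gave 6 higher, Il6 among them, and 2 lower of the 10, beside 12.7% and 19.3% of all genes. The median log2 difference of the 10 genes was 0.61 in the SJW diet and 1.08 in the control diet, against -0.06 and -0.05 over all genes. Against saline, tumours of the SJW diet had 7 higher and 1 lower, beside 13.7% and 22.5% of all genes, and tumours of the control diet 8 higher and 2 lower, beside 13.2% and 19.6%. Tumour and AOM-treated arrays did not overlap for 7 of the 10 genes in SJW, beside 46.2% of all genes, and for 8 in the control diet, beside 42.7%. Tumour and saline arrays were fully apart for 10 of the 10 in each diet, beside 50.5% of all genes in SJW and 43.3% in the control diet. Il6, kept by the filter through the control tumours alone, is counted among the genes without overlap in each case. It is also among the genes higher than saline in both diets. The comparisons against AOM-treated and against saline tissue share their tumour arrays. The plot of log2 ratios by group shows all 18 arrays for each gene.

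**Figure D1:**
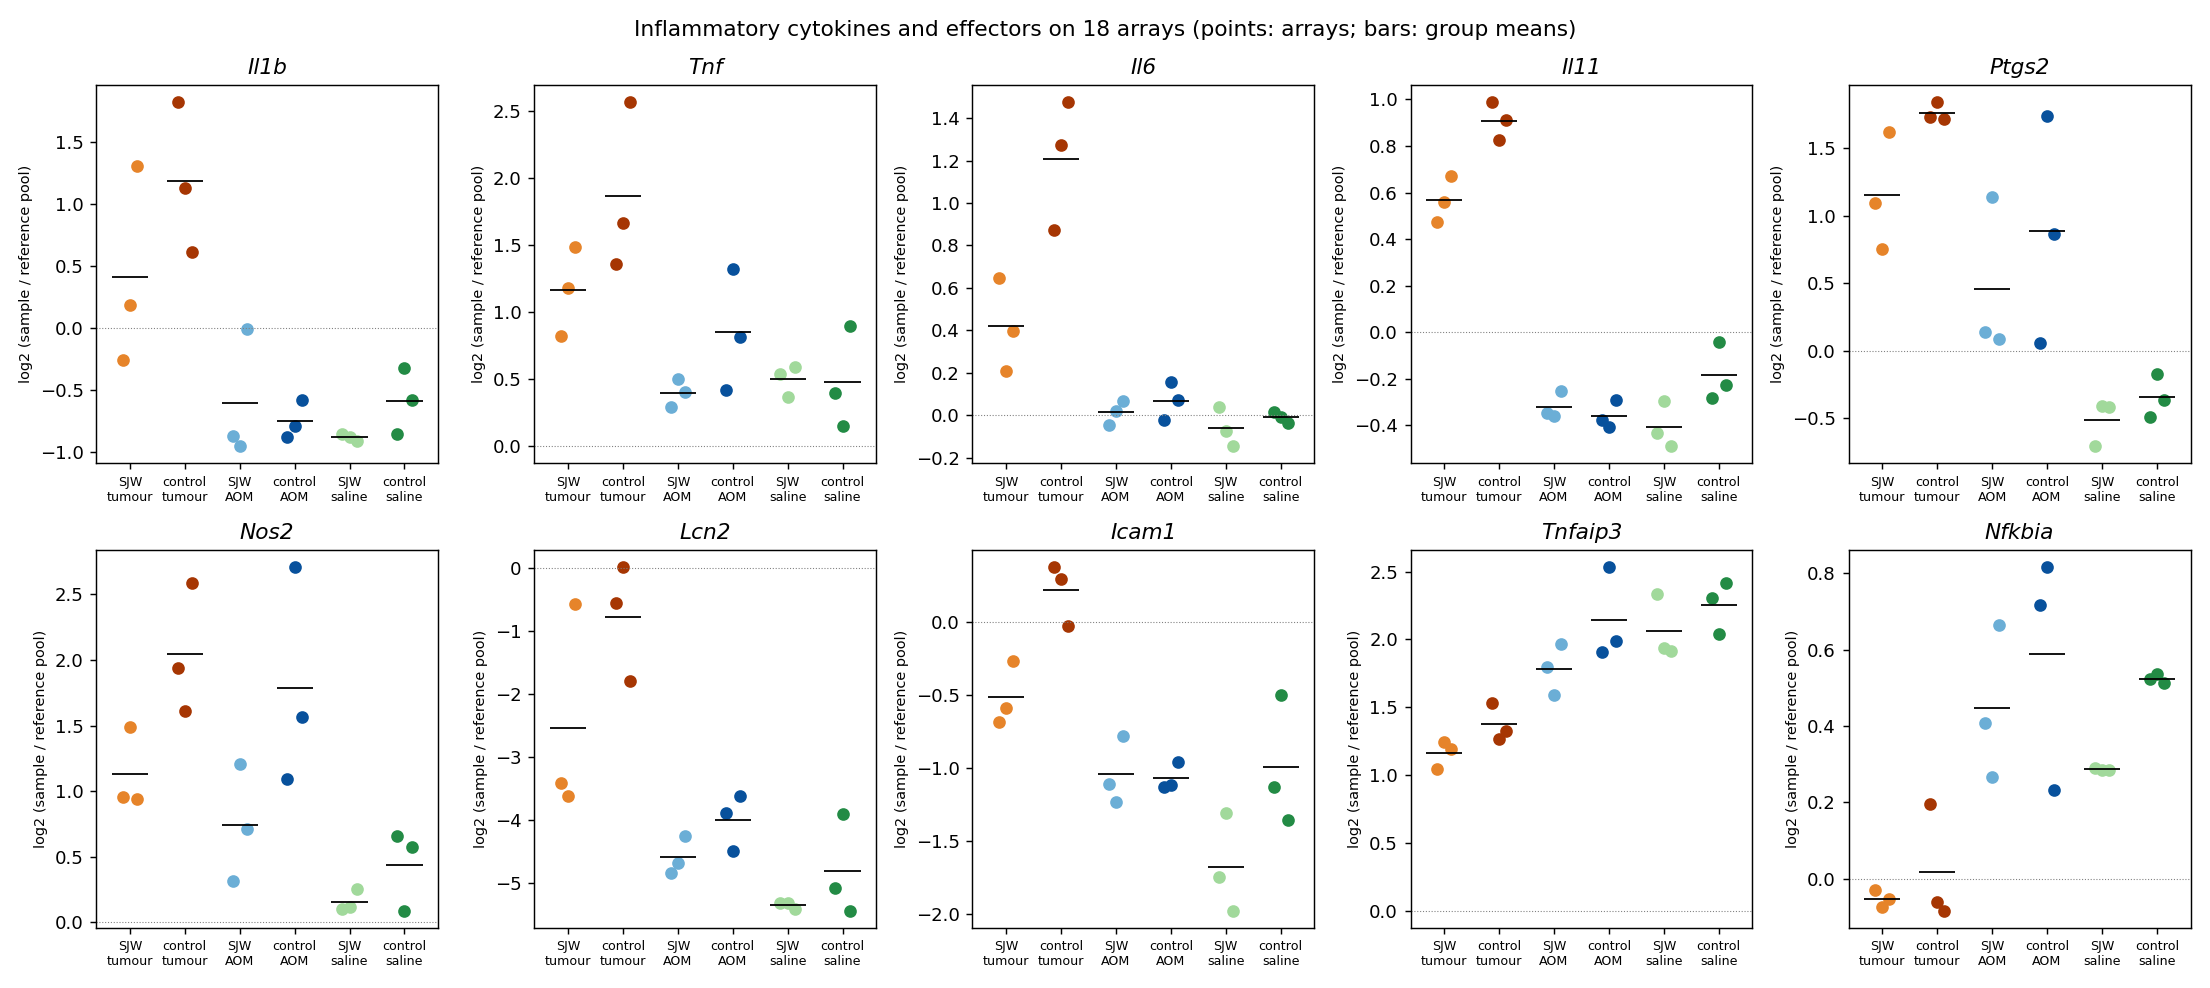
Log2 ratio of sample over reference pool (y axis) of each of the 10 genes on each of 18 arrays, in 6 groups (x axis); points are arrays and bars are means of 3 arrays. Tumour arrays lie above all non-tumour arrays for Il6 and Il11 and below all of them for Tnfaip3 and Nfkbia.

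Il1b, the interleukin 1 beta gene, read -0.25, 0.19 and 1.31 in SJW tumours and 1.82, 1.13 and 0.61 in control tumours. After AOM its ratios were -0.87, -0.95 and 0.00 in SJW and -0.88, -0.79 and -0.58 in control non-tumour tissue. After saline they were -0.85, -0.88 and -0.91 with SJW and -0.85, -0.32 and -0.58 with the control diet. Every control tumour was above every non-tumour array, while 1 SJW tumour overlapped 1 AOM-treated SJW sample. The difference of SJW tumours from AOM-treated tissue was 1.02 ± 0.35 (SE, n = 3 each, limma adjusted p = 0.0452), and without SJW tumour replicate 3 it was 0.58 (adjusted p = 0.226). Leaving out SJW tumour replicate 2 or SJW AOM replicate 1 or 2 also ended that call (adjusted p of 0.0597, 0.136 and 0.151). In the control diet the same difference was 1.94 ± 0.35 (adjusted p = 0.000742), a 3.84-fold level. Against saline Il1b was higher by 1.29 in SJW tumours and by 1.77 in control tumours (adjusted p of 0.00923 and 0.0013), and without SJW tumour replicate 3 the SJW value was 0.85 (adjusted p = 0.0549).

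Tnf, the tumour necrosis factor gene, read 0.82, 1.18 and 1.49 in SJW tumours and 1.36, 1.66 and 2.57 in control tumours. In AOM-treated non-tumour tissue the ratios were 0.29, 0.50 and 0.41 with SJW and 0.41, 1.32 and 0.81 with the control diet. Saline tissue gave 0.54, 0.37 and 0.59 with SJW and 0.39, 0.15 and 0.90 with the control diet. Within each diet the tumours lay above the non-tumour samples, the closest being control AOM replicate 2. In SJW tumours the differences of 0.76 from AOM (95% interval 0.16 to 1.37, adjusted p = 0.0633) and 0.66 from saline (0.05 to 1.27, adjusted p = 0.0838) did not pass. Tnf was higher in control tumours by 1.01 ± 0.29 against AOM (adjusted p = 0.0139) and by 1.38 ± 0.29 against saline (adjusted p = 0.00176). In the red channel alone these differences were 0.49 and 0.53. The call against AOM was lost without control tumour replicate 3 (0.66, adjusted p = 0.0761) or control AOM replicate 1 (0.80, adjusted p = 0.0733).

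Il6, the interleukin 6 gene, was well above background on 2 of 3 SJW tumour arrays, all 3 control tumour arrays and none of the 12 non-tumour arrays. Its ratios were 0.65, 0.21 and 0.40 in SJW tumours and 0.87, 1.27 and 1.48 in control tumours. Non-tumour arrays lay between -0.15 and 0.16. Tumours and non-tumour tissue did not overlap, nor did the tumours of both diets. Because Il6 passed the filter on dim probes through the control tumours alone, the group where it was high, its calls there describe that choice as well and support nothing further. Where one side is not above background the fold is a lower bound, set against the lowest signal that counted as detected there. In SJW tumours Il6 lay 1.18-fold above that level of saline tissue. This is no strict lower bound, since SJW tumour replicate 2 was itself not well above background. The fitted difference of SJW tumours was 0.48 from saline (adjusted p = 0.0169), and 0.41 from AOM, which did not pass (adjusted p = 0.0523). In control tumours Il6 was at least 1.65-fold higher than after AOM and at least 1.90-fold higher than after saline. These bounds were not tested themselves. The fitted differences of control tumours, the group that carried Il6 past the filter, were 1.14 and 1.22 (adjusted p of 4.13e-05 and 1.46e-05). With median centring of the arrays and no loess curve, the Il6 difference from saline was -0.11 in SJW and -0.02 in control tumours (adjusted p of 0.845 and 0.974), and that of control tumours from AOM was 0.59 (adjusted p = 0.224). The call of SJW tumours against saline also ended without SJW tumour replicate 1 (0.37, adjusted p = 0.0872) or SJW saline replicate 3 (0.44, adjusted p = 0.0626).

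Il11, whose product is a stromal cytokine of the interleukin 6 family, kept its calls whichever array was left out. It read 0.47, 0.56 and 0.67 in SJW tumours and 0.99, 0.83 and 0.91 in control tumours. AOM-treated tissue gave -0.35, -0.36 and -0.25 with SJW and -0.38, -0.41 and -0.29 with the control diet, and saline tissue -0.43, -0.29 and -0.49 with SJW and -0.28, -0.04 and -0.23 with the control diet. No tumour array overlapped a non-tumour array, and the control tumours lay above the SJW tumours. The difference from AOM-treated tissue was 0.89 ± 0.11 in the SJW diet (adjusted p = 3.64e-05) and 1.27 ± 0.11 in the control diet (adjusted p = 1.30e-06). Both Il11 calls held without each array in turn, with differences of 0.84 to 0.93 in the SJW diet and 1.23 to 1.31 in the control diet.

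Ptgs2, which encodes the inducible cyclooxygenase that starts prostaglandin synthesis, differed between tumours and saline tissue and did not pass between tumours and AOM-treated tissue. Its ratios were 1.09, 0.75 and 1.62 in SJW tumours and 1.73, 1.84 and 1.72 in control tumours. AOM-treated tissue read 0.14, 1.14 and 0.09 with SJW and 0.06, 1.74 and 0.87 with the control diet. Saline tissue read -0.71, -0.41 and -0.42 with SJW and -0.49, -0.18 and -0.37 with the control diet. The AOM-treated samples spread from near the saline level up to the tumour level, so they overlapped the tumours in both diets. Tumours exceeded saline tissue by 1.67 ± 0.34 in SJW (adjusted p = 0.00141) and by 2.11 ± 0.34 in the control diet (adjusted p = 0.000261). In saline tissue Ptgs2 was well above background on 2 of 3 SJW arrays and 1 of 3 control arrays, so the size of these differences is uncertain, and the highest value over the settings tried was 3.13 in SJW and 4.37 in the control diet.

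Against AOM-treated tissue the Ptgs2 difference was 0.70 (95% interval -0.03 to 1.43, adjusted p = 0.149) in SJW and 0.88 (0.15 to 1.61, adjusted p = 0.0627) in the control diet. Single samples decided these calls, since without SJW AOM replicate 2 the SJW difference was 1.04 (adjusted p = 0.0483), and without control AOM replicate 2 the control difference was 1.30 (adjusted p = 0.00638). A second Ptgs2 probe averaged 1.18 in SJW tumours, 1.71 in control tumours, 0.22 and 0.53 after AOM and -0.39 and -0.17 after saline, SJW before control. With the mean of both probes the calls against AOM passed in both diets (0.83, adjusted p = 0.0384 in SJW, and 1.03, adjusted p = 0.0104 in control). The first probe was well above background on 14 of 18 arrays and the second on 9. The second probe was so on all 3 arrays in the tumour groups only. It thus passed the filter on dim probes through tumours alone, where it was high, and the calls with both probes support nothing further.

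Nos2, which encodes inducible nitric oxide synthase, had a similar spread after AOM. It read 0.95, 1.49 and 0.94 in SJW tumours and 1.94, 1.61 and 2.59 in control tumours. AOM-treated tissue gave 0.31, 1.20 and 0.71 with SJW and 1.09, 2.71 and 1.56 with the control diet. Saline tissue gave 0.10, 0.12 and 0.25 with SJW, where 1 of 3 arrays was well above background, and 0.66, 0.09 and 0.57 with the control diet. The highest Nos2 array of all was an AOM-treated non-tumour sample, control replicate 2. Tumours exceeded saline tissue by 0.97 ± 0.35 in SJW (adjusted p = 0.0383) and by 1.60 ± 0.35 in the control diet (adjusted p = 0.00244). The SJW call was lost when any 1 of its 6 arrays was left out (adjusted p of up to 0.136) and with median centring (0.78, adjusted p = 0.0845). Its size is uncertain as well, since the scanner log ratio gave 2.00. Against AOM the differences were 0.39 (95% interval -0.35 to 1.12) in SJW and 0.26 (-0.48 to 0.99) in the control diet, with adjusted p of 0.440 and 0.604.

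**Figure D2:**
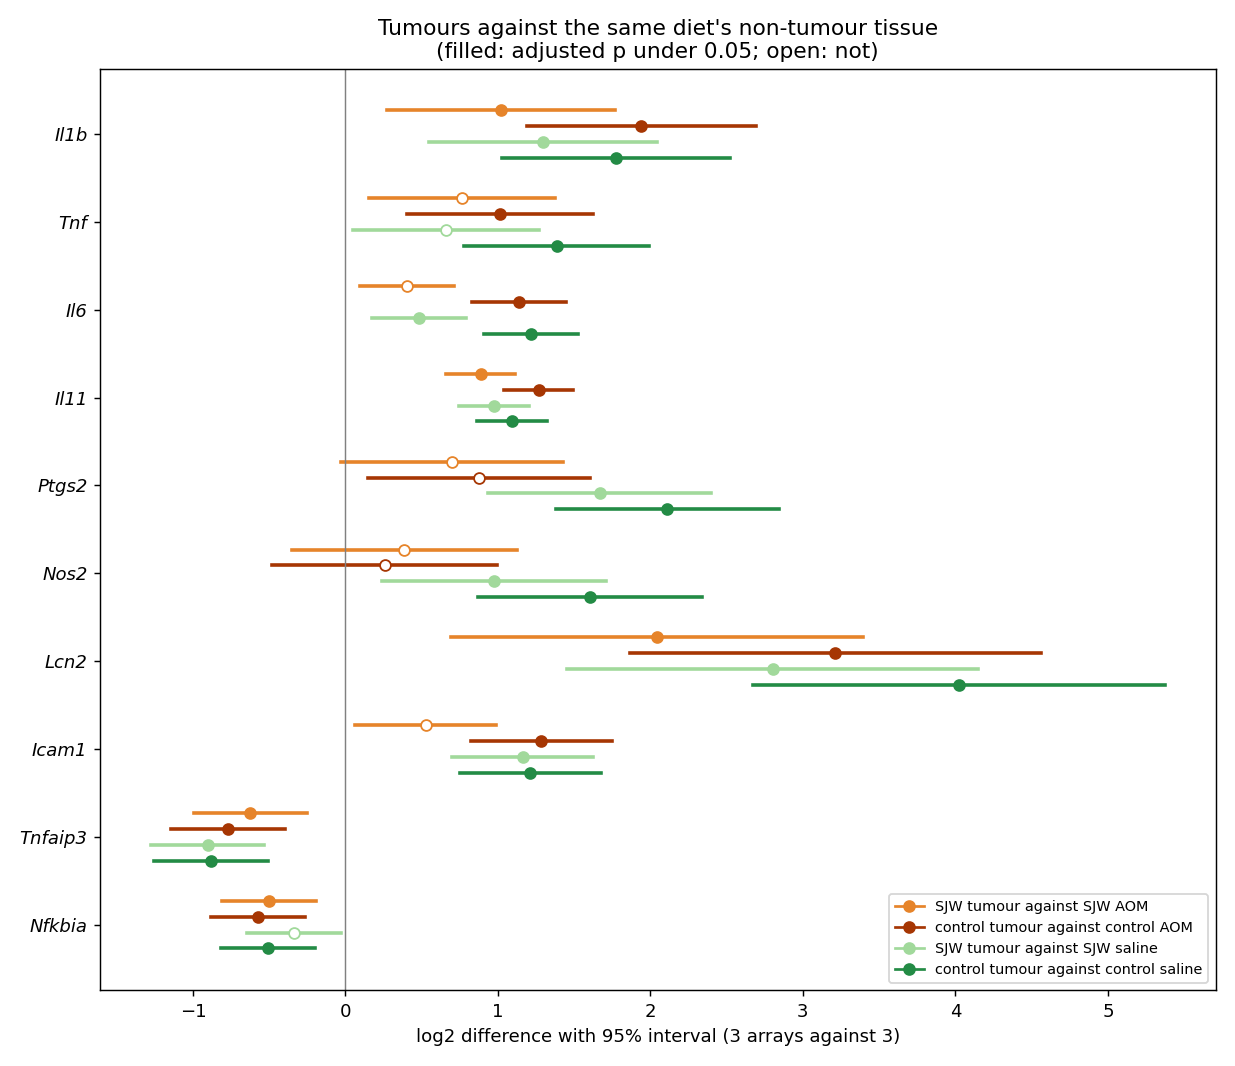
Log2 difference of tumours from non-tumour tissue of the same diet (x axis) for each of the 10 genes (y axis), with 95% intervals from limma over 3 arrays against 3; filled symbols passed an adjusted p of 0.05. Il1b, Il11, Lcn2 and Tnfaip3 passed in all 4 comparisons, while Ptgs2 and Nos2 passed against saline and not against AOM.

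Lcn2 encodes lipocalin 2, an antibacterial protein that binds bacterial siderophores and is released by neutrophils and inflamed epithelium. It had the widest range of the 10 genes: -3.42, -3.62 and -0.58 in SJW tumours and -0.57, 0.01 and -1.80 in control tumours. AOM-treated tissue read -4.83, -4.68 and -4.25 with SJW and -3.89, -4.48 and -3.62 with the control diet. Saline tissue read -5.32, -5.31 and -5.40 with SJW and -5.08, -3.91 and -5.44 with the control diet. Tumours were above the non-tumour tissue of their own diet on every array, and 2 of the SJW tumours were nearer to non-tumour tissue than to the third SJW tumour. The difference from AOM was 2.04 ± 0.64 in SJW (4.12-fold, adjusted p = 0.0284) and 3.21 ± 0.64 in the control diet (9.28-fold, adjusted p = 0.00139). Against saline it was 2.80 ± 0.64 in SJW (6.97-fold, adjusted p = 0.00278) and 4.02 ± 0.64 in the control diet (16.3-fold, adjusted p = 0.000197). Without SJW tumour replicate 3 the SJW difference from AOM was 1.06 (adjusted p = 0.129) and that from saline 1.82, which still passed. Without SJW AOM replicate 1 or 2 the Lcn2 difference from AOM was 1.92 and 2.00 (adjusted p of 0.0824 and 0.0733).

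Lcn2 and Il1b varied widely among tumours. S100a8 and S100a9, which encode the subunits of the neutrophil protein calprotectin, were the genes whose profile over 18 arrays was nearest to Lcn2, with root mean square differences of 0.53 and 0.49 after centring. S100a8 read -1.82, -0.97 and 1.01 in SJW tumours and 2.10, 1.81 and -0.21 in control tumours. The tumour arrays high in Lcn2 were SJW replicate 3 and control replicates 1 and 2, and the same arrays were high in S100a8. The 9 measured neutrophil markers averaged -0.29, -0.12 and 0.49 in SJW tumours and 1.07, 0.95 and 0.26 in control tumours, and against AOM 0 of them passed in SJW tumours and 4 were higher in control tumours (S100a8, S100a9, Csf3r and Retnlg). Other neutrophil genes did not follow Lcn2: Ngp was lowest among tumours on SJW replicate 3, and Camp read 0.09 on control replicate 2, the tumour array highest in Lcn2. Macrophage and monocyte markers averaged 0.65 to 0.85 in SJW tumours and 0.52 to 0.81 in control tumours, and the AOM-treated tissue of both diets lay between -0.13 and 0.78. Of the 9 measured, 2 were higher and 1 lower than after AOM in SJW tumours, and 2 higher in control tumours. Against saline 7 were higher and 1 lower in SJW tumours, and 8 higher in control tumours. Smooth muscle markers were lower than after AOM for 5 of 6 genes in tumours of both diets, and B and plasma cell markers for 3 of 6. Fibroblast markers were higher than after AOM for 2 of 7 genes in SJW tumours and 4 of 7 in control tumours, where 1 was lower. They were higher than after saline for 6 of 7 in both. Mast cell markers were higher than after AOM for 2 of 6 in SJW tumours, where 1 was lower, and 4 of 6 in control tumours. They were higher than after saline for 5 of 6 in both. Of all genes, 9.18% were higher and 15.4% lower than after AOM in SJW tumours, and 12.7% and 19.3% in control tumours. Against saline 13.7% were higher and 22.5% lower in SJW tumours, and 13.2% and 19.6% in control tumours. The part of these cell types in the differences of the 10 genes was not tested.

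**Figure D3:**
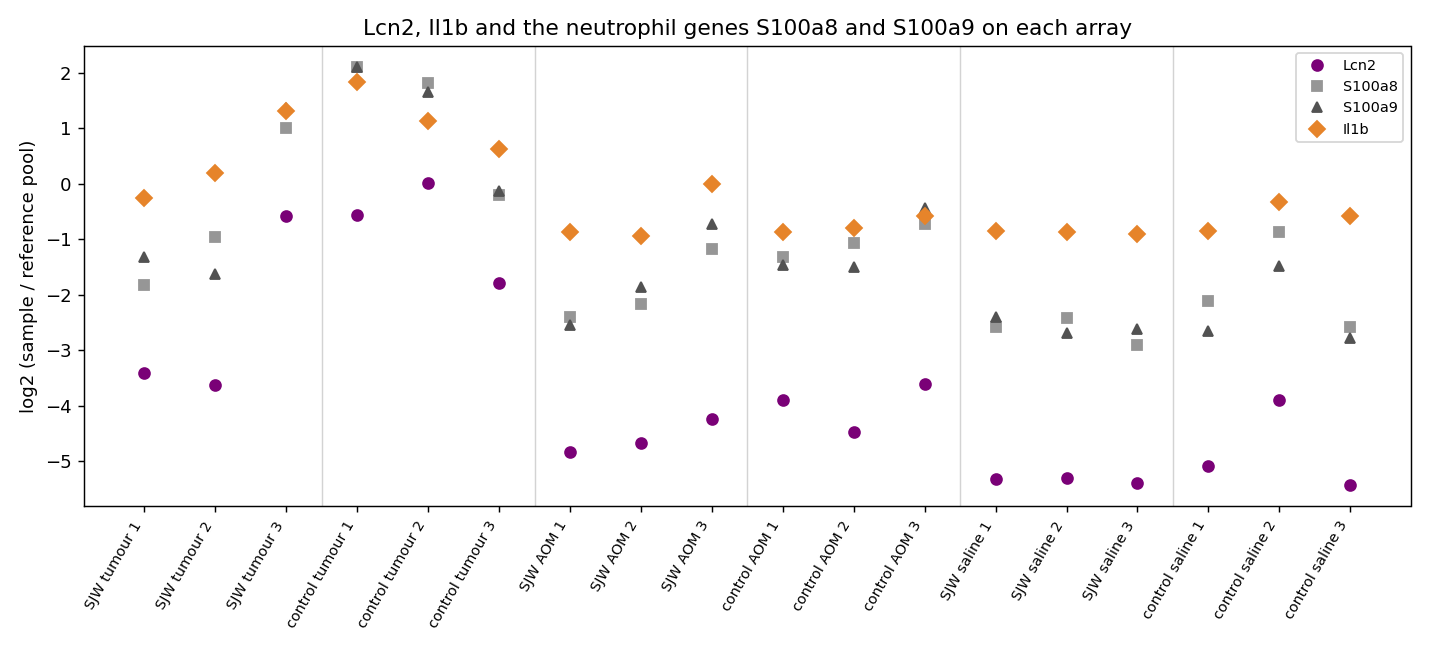
Log2 ratio of sample over reference pool (y axis) of Lcn2, Il1b, S100a8 and S100a9 on each of 18 arrays (x axis, by group and replicate); each point is 1 array. Within the tumours, SJW replicates 1 and 2 are the 2 lowest arrays for Lcn2 (-3.42 and -3.62) and for S100a8 (-1.82 and -0.97), in reverse order.

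Icam1 encodes an adhesion molecule of endothelium and epithelium that binds leukocyte integrins. Its ratios were -0.69, -0.59 and -0.27 in SJW tumours and 0.38, 0.30 and -0.03 in control tumours. AOM-treated tissue gave -1.11, -1.23 and -0.78 with SJW and -1.13, -1.12 and -0.96 with the control diet. Saline tissue gave -1.75, -1.31 and -1.98 with SJW and -1.13, -0.50 and -1.36 with the control diet. Tumours lay above non-tumour tissue within each diet, and control tumours above SJW tumours. Icam1 in SJW tumours was higher than saline tissue by 1.16 ± 0.22 (adjusted p = 0.000661), while 0.53 (95% interval 0.07 to 0.99) against AOM did not pass (adjusted p = 0.0879). That difference passed with median centring (0.87, adjusted p = 0.0155). It was higher by 1.28 ± 0.22 in control tumours than after AOM (adjusted p = 0.00043) and by 1.21 ± 0.22 than after saline (adjusted p = 0.000585).

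The feedback inhibitors ran the other way. Tnfaip3 encodes A20, an enzyme that edits ubiquitin chains and shuts off signalling to NF-kB. It read 1.04, 1.25 and 1.19 in SJW tumours and 1.53, 1.27 and 1.33 in control tumours. After AOM the ratios were 1.79, 1.59 and 1.97 with SJW and 1.90, 2.53 and 1.99 with the control diet, and after saline 2.34, 1.94 and 1.91 with SJW and 2.31, 2.04 and 2.42 with the control diet. Each tumour array was below each non-tumour array. Tnfaip3 fell by 0.62 in SJW tumours against AOM (SE 0.18, adjusted p = 0.0171) and by 0.77 in control tumours (SE 0.18, adjusted p = 0.00371). It fell by 0.90 and 0.88 against saline, SJW before control (adjusted p of 0.00088 and 0.00131).

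Nfkbia encodes the inhibitor that holds NF-kB in the cytoplasm. Its ratios spanned less than 1 over the groups: -0.03, -0.07 and -0.05 in SJW tumours, 0.20, -0.06 and -0.08 in control tumours, 0.41, 0.27 and 0.66 and 0.72, 0.82 and 0.23 after AOM with SJW and control diet, and 0.29, 0.28 and 0.29 and 0.52, 0.54 and 0.51 after saline. Again each tumour array was below each non-tumour array. Nfkbia fell by 0.50 in SJW tumours against AOM (SE 0.15, adjusted p = 0.0204) and by 0.57 in control tumours (SE 0.15, adjusted p = 0.00741). Against saline it fell by 0.51 in control tumours (adjusted p = 0.0144), and the SJW difference of -0.34 did not pass (adjusted p = 0.0806). Centred on the median of each array, the same 4 Tnfaip3 differences lay between -0.50 and -0.32 and none passed, those of Nfkbia against AOM were -0.25 in SJW and -0.40 in control, and Nfkbia in control tumours against saline turned to 0.09 (adjusted p = 0.775). In the red channel alone, without the reference, the Tnfaip3 difference of control tumours from AOM was -0.20 (adjusted p = 0.433). In the SJW diet the call against AOM was lost without SJW AOM replicate 3 for Tnfaip3 (-0.53, adjusted p = 0.0732) and Nfkbia (-0.39, adjusted p = 0.0967), without SJW tumour replicate 1 for Tnfaip3 (adjusted p = 0.0635), and without SJW tumour replicate 2 or 3 for Nfkbia (adjusted p of 0.0508 and 0.0551). With the scanner log ratio Nfkbia was at -0.33 in SJW and -0.34 in control tumours against AOM (adjusted p of 0.126 and 0.105). The control call of Nfkbia against saline was lost without control tumour replicate 3 (-0.46, adjusted p = 0.0548).

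AOM alone, in tissue without tumour, moved none of the 10 genes past the threshold in either diet, where 1.14% of all genes passed in the SJW diet and 0.583% in the control diet. At an unadjusted p under 0.05 there were 2 of the 10 in each diet, and 19.3% and 13.6% of all genes. The difference was largest for Ptgs2 in SJW and for Nos2 in the control diet. Ptgs2 was 0.97 above saline in SJW (95% interval 0.24 to 1.70, adjusted p = 0.147) and 1.23 above it in the control diet (0.50 to 1.96, adjusted p = 0.103). Nos2 was 0.59 above saline in SJW (-0.15 to 1.32, adjusted p = 0.360) and 1.35 in the control diet (0.61 to 2.08, adjusted p = 0.0847). For both genes the AOM-treated samples lay above all saline samples of their diet. Arrays of AOM and saline tissue did not overlap for 4 of the 10 genes in SJW, beside 28.6% of all genes, and for 3 in the control diet, beside 17.8%.

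Since each of the 3 slides held 1 array of each non-tumour group, the same differences could be read within a slide. For Ptgs2 they were 0.85, 1.55 and 0.50 in SJW and 0.55, 1.92 and 1.23 in the control diet on slides 1 to 3. Those of Nos2 were 0.22, 1.09 and 0.46 in SJW and 0.43, 2.62 and 0.99 in the control diet. All 12 had to be above 0, since the AOM-treated samples lay above all saline samples of their diet, so their signs add nothing. Slide 2 gave the largest in each diet. A fit with slides as blocks gave adjusted p of 0.0708 and 0.0558 for Ptgs2 and 0.359 and 0.0969 for Nos2, SJW before control. The scanner software's own log ratio, which sets no offset on dim spots, gave 3.29 for Ptgs2 in the control diet (adjusted p = 0.0146) and 1.95 for Nos2 in SJW (adjusted p = 0.0449). The Nos2 difference of the control diet passed with the brightness of the reference as a block (1.51, adjusted p = 0.0397). Smooth muscle markers averaged 0.40 to 2.75 after AOM and -0.93 to 0.37 after saline in SJW, and 1.04 to 2.67 and -1.41 to 0.98 in the control diet. Of these markers 0 of 6 passed in either diet. In SJW 3 of 9 macrophage and monocyte, 3 of 7 fibroblast and 1 of 7 T cell markers were higher after AOM, and 2 of 6 colonocyte markers lower. In the control diet 1 of 6 colonocyte markers was lower and no other listed marker passed. Of all genes 1.14% passed in SJW and 0.583% in the control diet. The part of these cell types in the Ptgs2 and Nos2 values was not tested.

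Icam1 was 0.64 above saline in SJW (adjusted p = 0.135) with no overlap, and -0.07 from it in the control diet (adjusted p = 0.925). The test of that gap between diets gave 0.71 ± 0.31 (adjusted p = 0.522). Lcn2 was 0.76 above saline in SJW (95% interval -0.59 to 2.11) and 0.81 above it in the control diet (-0.54 to 2.16). Intervals of Il6 were -0.23 to 0.38 in SJW and -0.23 to 0.39 in the control diet, from arrays on which it was not well above background.

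The diets differed in no gene by limma's adjusted p. SJW tumours were lower than control tumours in all 10 genes by their means, with a median of -0.72 against 0.01 over all genes. None of the 10 passed, and 0% of 26073 genes did. At an unadjusted p under 0.05 there were 7 of the 10, Il6 among them, and 6.00% of all genes. In 6 of the 10 the tumours of both diets did not overlap, as for 10.5% of all genes: Il6, Il11, Ptgs2, Nos2, Icam1 and Tnfaip3. The place of Il6 in both counts supports nothing further, since the filter kept it through the control tumours.

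Il6, which passed the filter only through the control tumours, was at -0.79 (95% interval -1.10 to -0.48, adjusted p = 0.304). Without control tumour replicate 1 it was -0.96 and passed (adjusted p = 0.0490). Icam1 was at -0.73 (-1.19 to -0.27, adjusted p = 0.591), Il11 at -0.34 (-0.57 to -0.11, adjusted p = 0.604) and Nos2 at -0.91 (-1.65 to -0.18, adjusted p = 0.777). Lcn2 was at -1.76 (-3.11 to -0.41, adjusted p = 0.754), Il1b at -0.78 and Tnf at -0.70 (adjusted p of 0.822 and 0.788), each with overlap.

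Both tumour slides held both diets. On the slide with 2 tumours of each diet the SJW minus control difference was -3.24 for Lcn2 and -1.51 for Il1b, and on the slide with 1 of each it was 1.22 and 0.69, so both genes had opposite signs on the slides. For Il6 the slide differences were -0.64 and -1.08, for Nos2 -0.55 and -1.64 and for Tnf -0.51 and -1.08. Icam1 gave -0.98 and -0.24, and Il11 -0.39 and -0.24. For Il6, Nos2, Icam1 and Il11 the tumours of both diets did not overlap, so equal signs on both slides were fixed in advance and add nothing. With slide as a block no gene of the 10 passed.

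In non-tumour tissue the median diet difference of the 10 genes was -0.25 after AOM and -0.23 after saline. After AOM 7 of the 10 genes were lower with SJW by their means and after saline 9 were, none passed, and 0% of all genes passed in either. The arrays of both diets were fully apart for 0 of the 10 genes after AOM, beside 9.12% of all genes, and for 3 after saline, beside 14.1%. At an unadjusted p under 0.05 there was 1 of the 10 in each, Nos2 after AOM at -1.05 (95% interval -1.78 to -0.31) and Icam1 after saline at -0.68 (-1.14 to -0.22), beside 3.18% and 10.7% of all genes. On the 3 slides the Nos2 difference after AOM was -0.78, -1.50 and -0.86. Whether the AOM or the tumour difference depended on diet was tested as an interaction, where none of the 10 and 0% of all genes passed, with 1 of the 10 and 9.34% of all genes at an unadjusted p under 0.05 for AOM and 3 and 4.14% for tumours. Those 3 were Il6 at -0.73, Icam1 at -0.76 and Il11 at -0.38, named here after their values were seen. Of these, Il6 passed the filter on dim probes only through the control tumours.

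**Figure D4:**
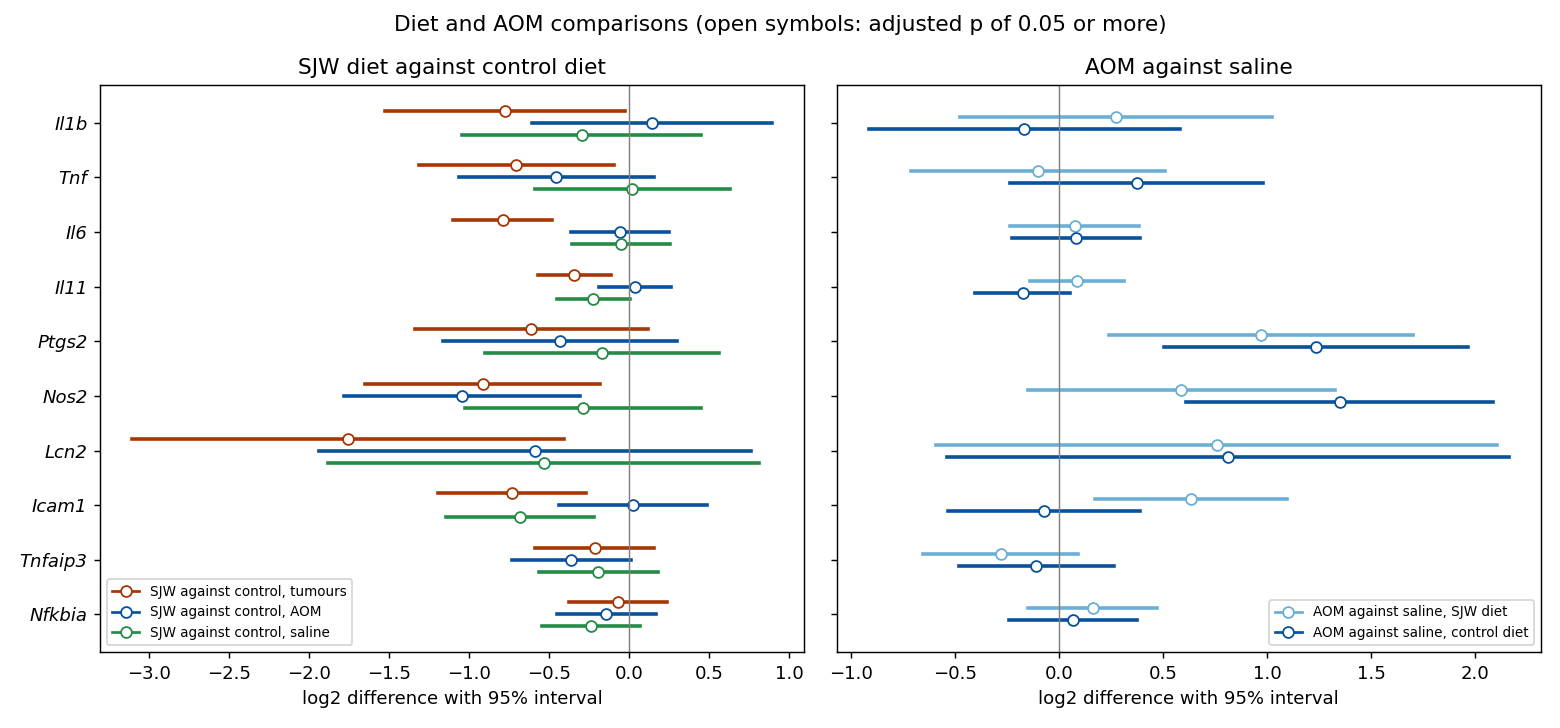
Log2 differences with 95% intervals from limma (x axis) for each of the 10 genes (y axis): the SJW diet against the control diet in tumours, after AOM and after saline (left), and AOM against saline in each diet (right). All symbols are open because no adjusted p was under 0.05, and the 10 tumour means of the left panel lie below 0.

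Ordered by their group means, the 10 genes ran in similar but not equal series. Control tumours were the highest group for all 8 genes other than Tnfaip3 and Nfkbia, for which SJW tumours were the lowest. Among the 5 steps between neighbouring groups, the arrays were fully apart at 2 steps for Il6, Il11, Ptgs2, Icam1 and Tnfaip3 (7.19% of all genes had at least 2). They were apart at 1 for Il1b and Nfkbia, as for 7579 of 26073 genes, and at none for Tnf, Nos2 and Lcn2, as for 16620. The place of Il6 here supports nothing further, since the filter kept it through the control tumours. For Il6 and Il11 those 2 steps were from the highest non-tumour group to SJW tumours and from SJW to control tumours. For Icam1 they were from SJW saline to control AOM tissue and from SJW to control tumours, and for Ptgs2 from control saline to SJW AOM tissue and from SJW to control tumours. All other neighbours among the 4 non-tumour groups overlapped. For Nos2 the AOM-treated control tissue stood above the SJW tumours by its mean, with overlap.

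The profiles nearest to the other members, by the same measure over 18 arrays, were those of Clec4d for Il1b (root mean square difference 0.32), Shf for Tnf (0.26), Rsl1d1 for Il6 (0.16) and Cep162 for Il11 (0.16). Ctps was nearest to both Ptgs2 (0.33) and Nos2 (0.38), Ackr3 to Icam1 (0.25) and Rassf7 to Tnfaip3 (0.18). Mmp3, a matrix metalloproteinase, was the third for Ptgs2 (0.38). Clec4d encodes a C-type lectin of myeloid cells.

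Around the 10 genes, 90 of 95 listed genes of their pathways were measured. In tumours against AOM-treated tissue 10 of them were higher and 25 lower in the SJW diet, and 15 higher and 25 lower in the control diet. Against saline 23 were higher and 26 lower in SJW, and 18 higher and 19 lower in the control diet. After AOM alone the counts were 1 and 1 in SJW and 1 and 0 in the control diet, and between diets 0 of 90 passed in any comparison. Of all genes 9.18% were higher and 15.4% lower than after AOM in SJW tumours, and 12.7% and 19.3% in control tumours. Against saline the shares were 13.7% and 22.5% in SJW and 13.2% and 19.6% in control tumours. After AOM alone 1.14% of all genes passed in SJW and 0.583% in the control diet, and between diets 0%.

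**Figure D5:**
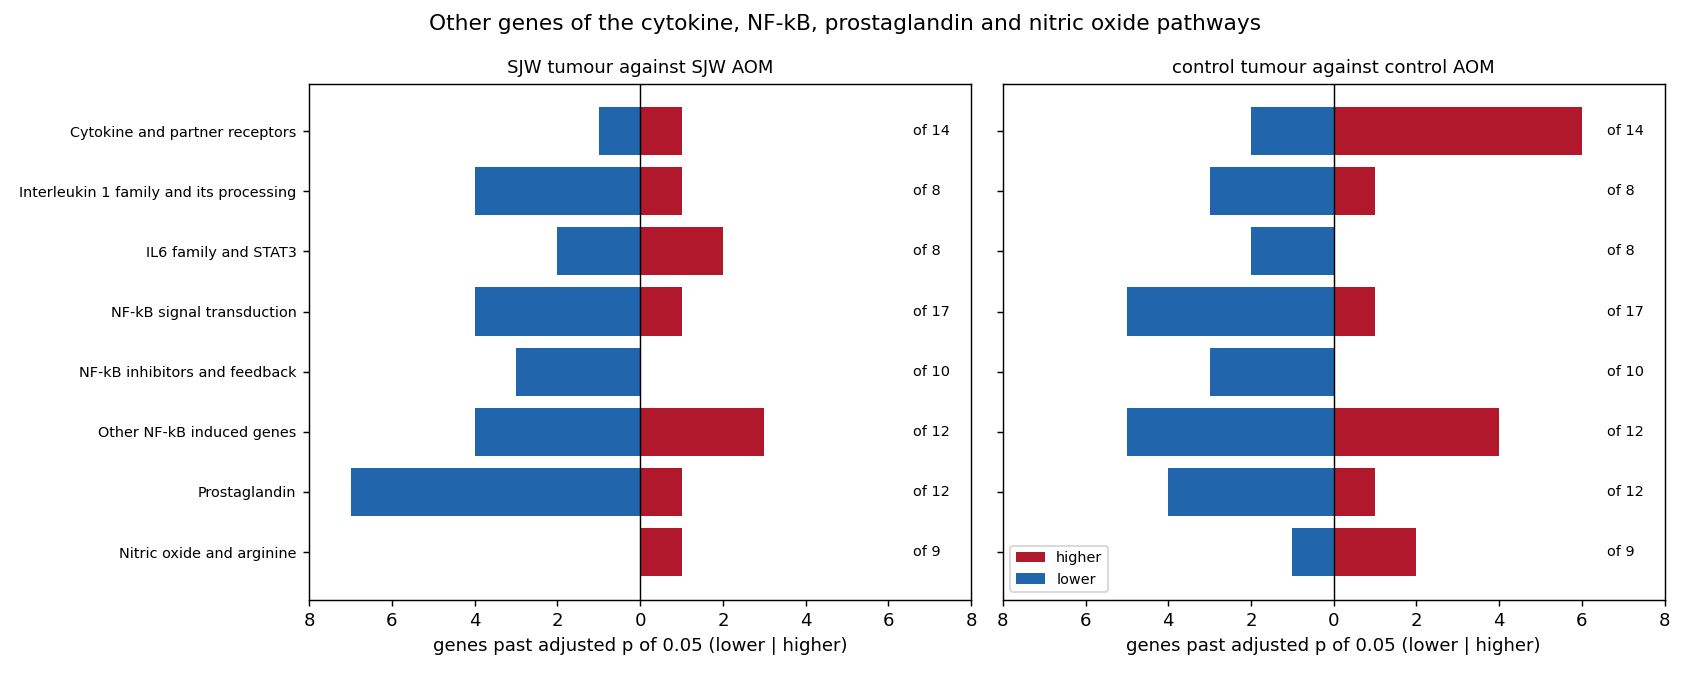
Number of genes of each pathway list that were higher (right of 0) or lower (left of 0) at an adjusted p under 0.05 in tumours than in AOM-treated non-tumour tissue (x axis), by list (y axis), for the SJW diet (left) and the control diet (right). The number after "of" is how many genes of the list were measured. The prostaglandin list has 7 lower in the SJW diet and 4 in the control diet, beside 15.4% and 19.3% of all genes.

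The interleukin 1 receptor Il1r1 was higher against AOM by 1.12 ± 0.17 in SJW and 0.73 ± 0.17 in control tumours (adjusted p of 0.000301 and 0.00505). Its decoy Il1r2 was higher against AOM by 1.01 ± 0.24 in control tumours (adjusted p = 0.00515). Il1r2 was well above background on 11 arrays, with 3 SJW tumour and 2 SJW AOM arrays among them, so the size is uncertain. The filter on dim probes may have kept Il1r2 through tumours alone. Its call and its place in the count of receptor genes thus support nothing further. The tumour necrosis factor receptor gene Tnfrsf1a fell by 0.47 in SJW and by 0.55 in control tumours, while Tnfrsf1b rose by 0.83 in control tumours. Of the 14 receptor genes 1 was higher and 1 lower in SJW, and 6 higher and 2 lower in the control diet. For all genes these shares were 9.18% and 15.4% in SJW, and 12.7% and 19.3% in the control diet. Of the 8 measured genes of the interleukin 1 family and its processing, 1 was higher and 4 lower in SJW tumours and 1 higher and 3 lower in control tumours. Casp1, the caspase that cleaves interleukin 1 beta, fell by 1.63 in SJW and by 1.43 in control tumours, and the adaptor Pycard by 1.01 and by 1.56. Il18, an epithelial cytokine cleaved by the same caspase, fell by 0.68 and by 1.29, and Il33 rose by 1.48 and by 1.22. Gsdmd, whose product forms the pore that releases interleukin 1 beta, fell by 0.62 in SJW tumours (adjusted p = 0.0447), while Il1a, Nlrp3 and Casp4 passed in neither diet. After AOM alone Il18 fell by 0.96 in the SJW diet (adjusted p = 0.0272).

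In the prostaglandin list, 1 of 12 genes was higher in either diet, with 7 lower in SJW and 4 lower in control tumours. For all genes the shares were 9.18% higher and 15.4% lower in SJW, and 12.7% and 19.3% in control tumours. Hpgd, which inactivates prostaglandin E2, fell by 2.80 in SJW tumours against AOM and fell by 3.22 in control tumours (adjusted p of 8.28e-05 and 1.82e-05). Slco2a1, the prostaglandin transporter, fell by 1.65 and by 1.66, and the receptor gene Ptger3 by 1.86 and by 1.96. Ptges, a prostaglandin E2 synthase that works with the product of Ptgs2, rose by 0.69 in control tumours (adjusted p = 0.0163). Colonocyte markers, 6 of 6, were lower in tumours of both diets with medians of -4.23 in SJW and -5.21 in control, and their part in the Hpgd and Casp1 values was not tested.

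In the nitric oxide and arginine list, Ddah2, which breaks down an inhibitor of nitric oxide synthases, rose by 1.50 in SJW and by 0.85 in control tumours. Arg1, the arginase that competes for the substrate of Nos2, rose by 1.41 in control tumours against AOM (adjusted p = 0.0015). After AOM alone Ddah2 rose by 0.82 ± 0.15 in the SJW diet (adjusted p = 0.0272). Ddah1 rose by 1.27 ± 0.26 after AOM in the control diet (adjusted p = 0.0354), and it fell by 1.33 in control tumours against AOM.

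Among NF-kB regulators, 3 of 10 inhibitors were lower and none higher in tumours of either diet against AOM, beside Tnfaip3 and Nfkbia. For all genes the shares were 15.4% lower and 9.18% higher in SJW, and 19.3% and 12.7% in control tumours. Tnip1, whose product binds A20, fell by 0.95 in SJW and by 0.97 in control tumours, Zfp36, which destabilises cytokine messenger RNA, by 0.75 and by 0.77, and Nfkbib, a second cytoplasmic inhibitor, by 0.36 and by 0.42. Other genes that NF-kB is known to induce split in direction: 3 of 12 were higher and 4 lower in SJW, and 4 higher and 5 lower in control tumours. The chemokine gene Cxcl1 rose by 1.09 in SJW and by 1.34 in control tumours, and Ccl2 by 0.75 and by 0.88. Cxcl2 was higher in control tumours than after AOM, where it was not well above background (adjusted p = 0.00143). Like Il6, Cxcl2 passed the filter on dim probes only through the control tumours, so this call supports nothing further. Birc3 fell by 1.61 and by 1.55, and the acute phase gene Saa3 by 1.90 and by 2.20. In the list of the interleukin 6 family and STAT3, 2 of 8 genes were higher and 2 lower in SJW tumours against AOM, and 0 higher and 2 lower in control tumours. Socs3, a feedback inhibitor of gp130 signalling, rose by 1.02 in SJW tumours against AOM (adjusted p = 0.044) and was not called higher in control tumours. Against saline Socs3 rose by 1.18 in SJW and by 2.00 in control tumours, while Cish fell against AOM by 0.79 and by 0.70.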

How the data were processed

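Red and green intensity of 45018 spots per array (1639 of them controls) was deposited by the authors as scanner output of Agilent Feature Extraction 10.10.1.1, per the file headers. The deposited value table holds 35491 log2 ratios of red over green, with array medians of -0.03 to 0.34. They correlated with the log2 ratio of the software's processed red and green signals at r of at least 0.99998. The authors' log10 ratio was taken from the processed signals, per the file headers. The labels give Cy5 for the sample and Cy3 for the pool on every array, with no dye swap, so dye effects stay in levels and are shared by all groups. The pool came from Swiss Webster mice and held RNA of embryos, brain, thymus, spleen, lung, heart, liver, kidney and gonads, with no intestine among the organs named.

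Median signals were background-corrected (normexp, offset 50) and loess-normalized within arrays in limma 3.58.1 (R 4.3.3), with outlier spots left out and control spots at weight 0. A probe was kept if its red signal was well above background on all 3 arrays of any group (34081 of 41174 probes). The brightest probe stood for a gene, which left 26073 genes, 16799 of them with a symbol. A single fit over 18 arrays gave 11 comparisons, each with Benjamini-Hochberg adjustment over all genes at 0.05, and the steps were tested on simulated data. Il6 bounds used the lowest detected signal of each array. The number of arrays limits the precision.

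The members, the pathway and marker lists and the alternatives were chosen with earlier results of these data known. The named genes were the 10 members, of each pathway list those of smallest p that passed in each direction (up to 3), for members whose group means span at least 1 the 3 genes of nearest profile, of which the first or a selection is given, and list genes that a description turns on.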

Additional observations from a re-analysis of the deposited data

How the results depend on the processing

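Median centring in place of loess turned the sign of Il6 against saline in SJW tumours (-0.11) and control tumours (-0.0161) and of Nfkbia in control tumours against saline (0.0933), and it left 5 of the 10 genes called in SJW tumours against saline, all higher. That setting shifted the median of all genes by 0.16 to 0.19 in the tumour comparisons. The cause was not tested. For AOM against saline in the control diet, 1 of the 10 genes passed with the scanner log ratio, 1 with the deposited values (9 of the 10 were in that table) and 1 with reference brightness as a block, and in the SJW diet 1 passed with the scanner log ratio. Fitting only the arrays compared ended the calls against AOM of Il1b and Lcn2 in SJW tumours and of Tnf and Nfkbia in control tumours (adjusted p of 0.0900, 0.0597, 0.0731 and 0.0733). Leaving out the 6 arrays of bright reference, an alternative chosen after seeing the data, left 1 saline array in each diet. The difference of SJW tumours from saline was then 1.29 for Il1b, 0.49 for Il6 and 1.01 for Nos2. That of control tumours from saline was 1.12 for Nos2 and -0.46 for Nfkbia. Leaving out 1 array at a time gave 2 to 4 called for SJW tumours against AOM, 0 to 1 between the diets in tumours, 7 to 9 for control tumours against AOM, 6 to 7 for SJW and 9 to 10 for control tumours against saline. Over all settings, called differences kept direction and call in 534 cases, lost the call in 49 and reversed in 3. Differences without a call gained one in 38 cases and not in 1575.

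In the non-tumour groups the replicate number was also the slide, so it paired those arrays by slide, and 8 of their 18 same-number correlations of deviations were over 0.1. Tumour arrays lay on other slides, and over all groups 13 of 45 were over 0.1, with a range of -0.35 to 0.41. With the replicate number as a block, Il1b in SJW tumours against AOM lost its call (adjusted p = 0.0532), while Tnf in SJW tumours passed against AOM and saline (adjusted p of 0.0359 and 0.0481) and Ptgs2 passed in control tumours against AOM (adjusted p = 0.0468).

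Signal limited Il6 most, since it was not well above background on any of the 12 non-tumour arrays, followed by Ptgs2 and Nos2 in saline tissue.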
